A study of Homo sapiens with 4 samples.

Results

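Aminoacyl-tRNA synthetases are the enzymes that attach each amino acid to its tRNA, and 35 of their genes, taken by gene name from a list drawn up with earlier results of these data known, were followed here among the 57820 gene entries of the files. Of these, 19 encode enzymes of the cytosol and 16 encode enzymes that work in mitochondria. A symbol opens with the letter code of the amino acid, and a final 2 marks the mitochondrial form. EPRS1 joins the glutamate and proline enzymes in a single protein, and FARSA and FARSB are the subunits of the cytosolic phenylalanine enzyme. Each library was made from HEK293T cells, a human embryonic kidney line, that had received an expression vector for SF3B1, the U2 snRNP protein that contacts the intron branch point. The vectors encoded the R625H, K666T or K700E mutant of SF3B1 or the wild-type protein (WT), and each gave 1 library. Plasmid amounts per the labels were 1000 ng for R625H, 1000 ng for K666T and 2000 ng for K700E, and the amount for WT was not given in the sources used here. All 4 groups share the line and the transfection reagent, and the labels describe no change to the cells' own SF3B1 gene. With 1 library per group no difference between vectors has a replicate check, so gene levels were compared without a test and intervals cover counting error only.

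Cytosolic synthetases charge the tRNAs used by ribosomes in the cytosol, and several of them are held in a multi-synthetase complex with scaffold proteins. A separate set of nuclear genes supplies the mitochondrial enzymes, while GARS1 and KARS1 each encode both a cytosolic and a mitochondrial form. Many cytosolic synthetase genes are known targets of ATF4, the transcription factor of the integrated stress response, and WARS1 is also a known interferon-induced gene. Mutant SF3B1 is known for use of cryptic acceptors a short way upstream of the usual one.

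Gene reads totalled between 82254731 and 86394759 in the mutant libraries and 90939945 in WT. Unmapped pairs made up between 15.17 and 17.31% of pairs in the mutant libraries and 8.839% in WT. SF3B1 had between 512 and 521 counts per 1000000 gene reads (CPM) in the mutant libraries and 506 CPM in WT, so its level does not check the labels. Of the markers of the line, VIM, NEFM and PAX2 were measured in every library, and PAX2 was low, at 1.82, 1.75 and 2.65 CPM in R625H, K666T and K700E and 2.3 CPM in WT. The leukocyte marker PTPRC and the hepatocyte marker ALB stayed under 1 CPM in all 4 libraries, and the blood marker CD34 was low, at no more than 1.05 CPM. NEFL was not analysed here. In K700E the position of reads along genes also differed from WT: over 30 synthetase genes, annotated introns were split into 3 groups by their order along the gene, and the group nearest the 5' end had log2 ratios to WT with a median of 0.11 relative to the gene's own median, the group nearest the 3' end -0.13. Over 6606 genes these medians were 0.07 and -0.04 in K700E, and in R625H and K666T the synthetase medians lay within 0.01 of 0. The part of this slope in any K700E value was not tested.

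All 35 genes were measured, at 1 CPM or more in at least 1 library. Per length, as CPM per kilobase of exon (RPKM, mean of the 4 libraries), TARS1 was highest at 112 RPKM, followed by EPRS1 at 85.7, AARS1 at 84.0, FARSA at 80.1 and SARS1 at 78.0 RPKM. IARS2, at 74.3 RPKM, was the highest of the mitochondrial enzymes, and the lowest were SARS2 at 1.15, CARS2 at 3.25, FARS2 at 3.52 and VARS2 at 6.43 RPKM. SARS2 is uncertain, because another gene on its strand overlaps it and 14 of its 15 introns with at least 50 reads in WT belong to both annotations. Summed over the cytosolic genes the level was 5094, 5319 and 5439 CPM in R625H, K666T and K700E and 4859 CPM in WT. The mitochondrial genes summed to 1070, 1081 and 1085 CPM in R625H, K666T and K700E and 1174 CPM in WT. The cytosolic sum was therefore above WT in every mutant library and the mitochondrial sum below it. In bulk RNA, fewer cells with a transcript and less of it per cell cannot be told apart.

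Gene by gene, the shifts were small. Levels were compared as the log2 ratio of CPM with a prior count of 10. Genes past a fixed limit were counted, set at 25% above WT or, as the same fold downward, 20% below it. In R625H no synthetase gene was that much higher and 1 (VARS2) was that much lower, where 5.19% of all 14847 measured genes were higher and 4.66% lower. In K666T, 3 were higher (CARS1, GARS1 and TARS1) and 1 lower (VARS2), beside 7.05 and 3.96% of all genes. In K700E, 5 were higher (CARS1, SARS1, TARS1, WARS1 and SARS2) and none lower, beside 11.0 and 8.79% of all genes. No synthetase gene was 2-fold apart in any mutant library, a size that 0.653, 0.694 and 1.31% of all genes passed upward and 0.0269, 0.00674 and 0.438% downward in R625H, K666T and K700E. With at most 5 of 35 members past the 25% limit, the counts lie near what the shares of all genes would give.

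The direction differed between the compartments. The median log2 ratio of the 19 cytosolic genes was 0.06, 0.09 and 0.12 in R625H, K666T and K700E, and that of the 16 mitochondrial genes -0.10, -0.06 and -0.07. Over all genes the median was -0.02 in R625H and 0.00 in K666T and K700E. In all 3 mutant libraries, 13 of the cytosolic and 2 of the mitochondrial genes (HARS2 and RARS2) were above WT, and 2 cytosolic (IARS1 and QARS1) and 9 mitochondrial genes were below it, where 32.9% of all genes were above and 35.8% below. The 3 ratios of a gene share the WT library, so they are not independent of each other.

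**Figure D1:**
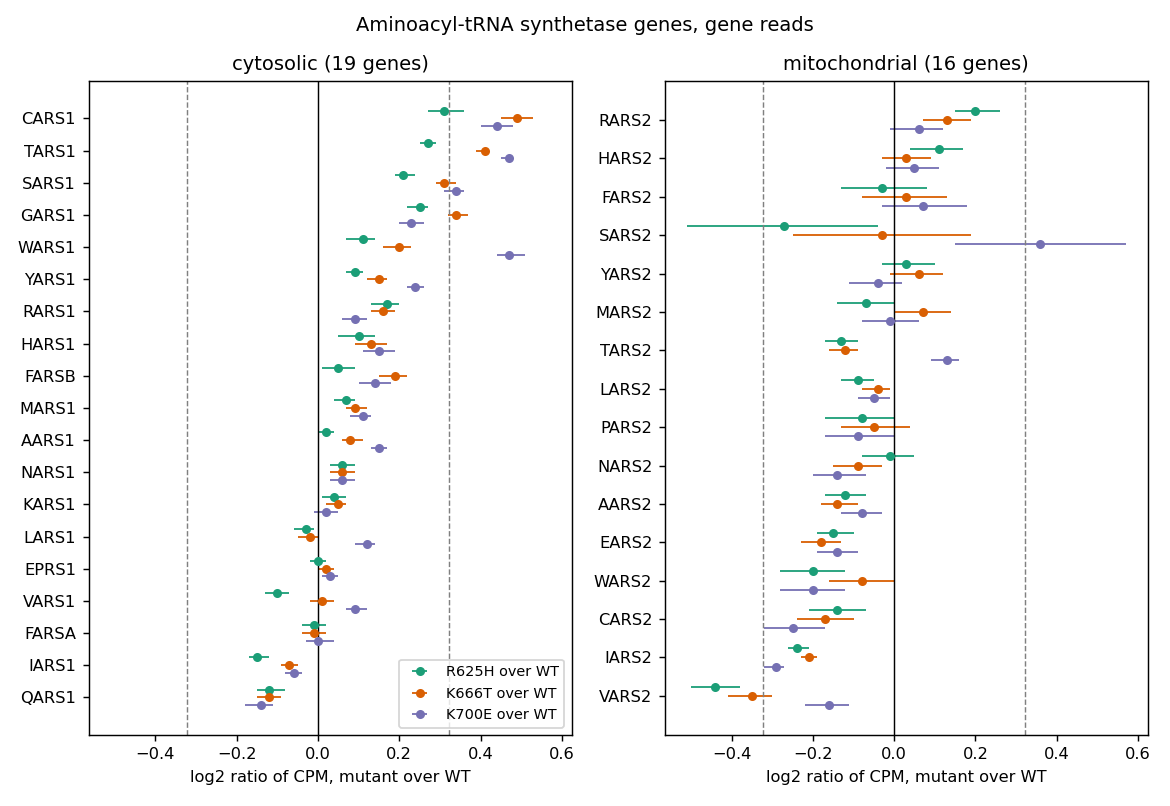
Log2 ratio of CPM, each mutant library over WT, for the 19 cytosolic (left) and 16 mitochondrial (right) synthetase genes, sorted by the mean of the 3 ratios. Points are ratios of 1 library to 1 library, bars are 95% counting intervals and dashed lines mark 25% above and 20% below WT. CARS1, TARS1, SARS1, GARS1 and WARS1 lie at the top of the cytosolic panel, and IARS2 and VARS2 at the bottom of the mitochondrial one.

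TARS1 (ENSG00000113407.9, chromosome 5), which charges threonine, had 630.2, 692 and 720.4 CPM in R625H, K666T and K700E, against 522 CPM in WT. Its log2 ratios were 0.27 (95% counting interval 0.25 to 0.29), 0.41 (0.39 to 0.42) and 0.47 (0.45 to 0.48). All 17 introns of TARS1 with at least 50 reads in WT were above WT in R625H and in K666T, and 15 of 17 were in K700E. CARS1 (ENSG00000110619.12, chromosome 11), which charges cysteine, had 119, 134 and 129 CPM in R625H, K666T and K700E, against 95.3 CPM in WT. Its log2 ratios of 0.31, 0.49 and 0.44 made it the cytosolic gene furthest above WT in R625H and K666T. Of its 24 introns, 23, 24 and 21 were above WT in R625H, K666T and K700E.

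SARS1 (ENSG00000031698.8, chromosome 1), for serine, had 297, 319 and 324 CPM in R625H, K666T and K700E, against 257 CPM in WT, with log2 ratios of 0.21, 0.31 and 0.34. GARS1 (ENSG00000106105.9, chromosome 7), for glycine, had 258, 276 and 255 CPM in R625H, K666T and K700E, against 218 CPM in WT, with log2 ratios of 0.25, 0.34 and 0.23. In these 4 genes every mutant library lay above WT, and R625H had the lowest log2 ratio of the 3 in TARS1, CARS1 and SARS1. YARS1, the tyrosine enzyme, and RARS1, the arginine enzyme, were above WT in all 3 as well, at log2 ratios of 0.09, 0.15 and 0.24 for YARS1 and 0.17, 0.16 and 0.09 for RARS1.

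**Figure D2:**
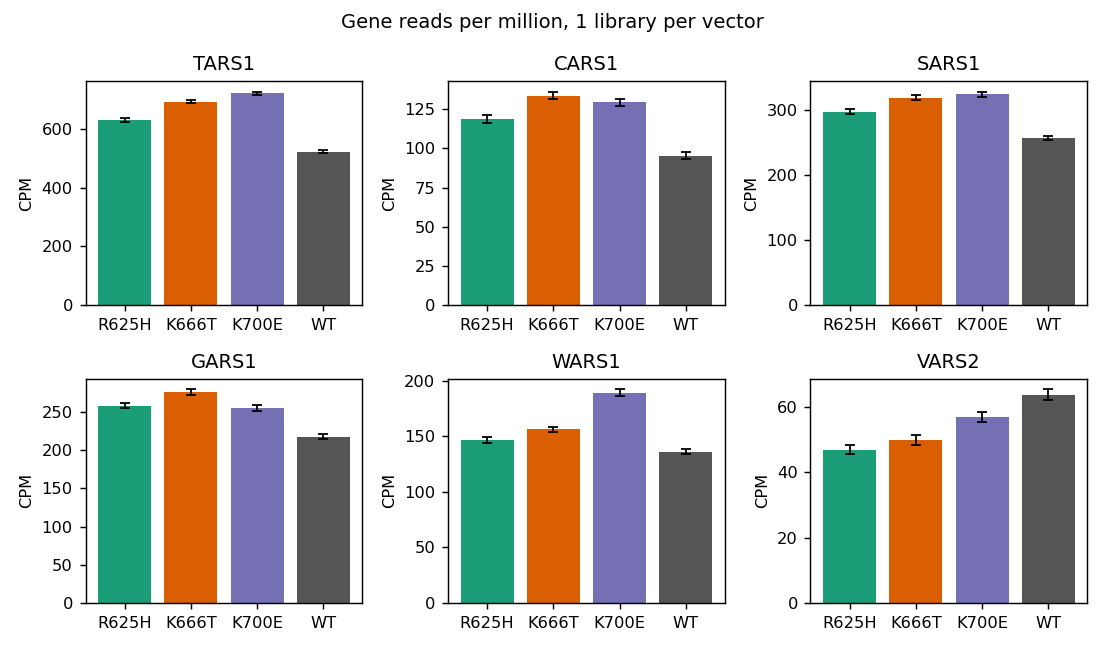
Counts per 1000000 gene reads (CPM, linear axis from 0) of 6 synthetase genes in R625H, K666T, K700E and WT, 1 library each, with 95% counting intervals. TARS1, CARS1, SARS1, GARS1 and WARS1 are higher in each mutant library than in WT, and VARS2 is lower in each.

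The 13 cytosolic genes known as ATF4 targets had median log2 ratios of 0.07, 0.09 and 0.15 in R625H, K666T and K700E, and the 6 other cytosolic genes 0.04, 0.09 and 0.05. Within the target list 0, 3 and 4 genes were at least 25% higher and none was at least 20% lower, beside 5.19, 7.05 and 11.0% of all genes higher and 4.66, 3.96 and 8.79% lower. The 7 enzymes of the multi-synthetase complex (EPRS1, IARS1, KARS1, LARS1, MARS1, QARS1 and RARS1) had medians of 0.00, 0.02 and 0.03, with none past either limit.

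Other known ATF4 targets lay on both sides of WT. Of 19 such genes, 4, 6 and 8 were at least 25% higher in R625H, K666T and K700E, and 2, 1 and 2 were at least 20% lower, where 5.19, 7.05 and 11.0% of all genes were higher and 4.66, 3.96 and 8.79% lower. The lower counts are near those shares. The stress-induced transcription factor ATF3 was at log2 ratios of 0.75, 0.94 and 0.84, and DDIT3, which encodes the CHOP factor, at 0.49, 0.80 and 0.81. NUPR1, a stress-induced chromatin protein, was at 0.50, 0.83 and 0.81, and SESN2, which encodes a stress-induced sestrin, at 0.43, 0.57 and 0.45. PHGDH, the first enzyme of serine synthesis and also a known target, was at -0.65, -0.58 and -0.40, and was lower in every mutant library. ASNS, the asparagine synthetase gene often used to read ATF4 activity, stood at 0.20, 0.20 and 0.10.

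The element TGATGNAA, which ATF4 binds together with C/EBP proteins, was searched on both strands of RefSeq promoters (GRCh38.p14, 250 bases before to 50 after the start), held for 30 of the 35 genes. It was found in 8 of the 30 (26.7%) and in 4.46% of all 27305 genes with a promoter. A gene counted if any of its promoters matched, and some genes, such as WARS1, have more than 1. Of the 16 cytosolic genes with a promoter, 7 had it (43.8%), and of the 14 mitochondrial genes 1 had it, YARS2. The cytosolic matches are shown because 3 of these genes, TARS1, CARS1 and GARS1, were also past the 25% limit in a mutant library. The match is in capitals, read along the gene's own strand, and all but NARS1 carry it in its reverse form.
TARS1: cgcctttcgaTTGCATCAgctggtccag
CARS1: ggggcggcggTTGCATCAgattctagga
GARS1: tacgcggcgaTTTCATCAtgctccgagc
AARS1: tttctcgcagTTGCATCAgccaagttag
MARS1: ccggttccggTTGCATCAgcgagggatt
IARS1: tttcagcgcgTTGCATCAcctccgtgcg
NARS1: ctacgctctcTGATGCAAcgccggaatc
The stretches lie at chr5:33440957-33440984 for TARS1, chr11:3057408-3057435 for CARS1, chr7:30594835-30594862 for GARS1, chr16:70289676-70289703 for AARS1, chr12:57488054-57488081 for MARS1, chr9:92293693-92293720 for IARS1 and chr18:57621805-57621832 for NARS1. TARS1, CARS1, AARS1, MARS1 and IARS1 carry the same letters in the match. Levels did not follow the match alone: AARS1 had log2 ratios of 0.02, 0.08 and 0.15 in R625H, K666T and K700E, MARS1 0.07, 0.09 and 0.11, NARS1 0.06 in each, and IARS1 -0.15, -0.07 and -0.06. SARS1 had no match in its window, and a match is a description of letters, not of binding.

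WARS1 (ENSG00000140105.13, chromosome 14), the tryptophan enzyme, stood apart in K700E. It had 147, 156 and 189 CPM in R625H, K666T and K700E, against 136 CPM in WT, with log2 ratios of 0.11 (0.07 to 0.14), 0.20 (0.16 to 0.23) and 0.47 (0.44 to 0.51). R625H stood at a log2 ratio of -0.37 to K700E and K666T at -0.28 to K700E, and WARS1 had the widest gap between R625H and K700E of the 19 cytosolic genes. IFIT1, an interferon-induced gene of the antiviral response, had 204 and 142 CPM in R625H and K666T and 1192 CPM in K700E, against 29.7 CPM in WT. The plasmid amount for K700E was also the larger one, and the part of either in the WARS1 level was not tested.

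Within WARS1 the extra reads were unevenly placed. An inner and an outer first exon splice to the same acceptor (chromosome 14, intron end 100835596 on hg19, minus strand). The inner one, whose last base is 100841620, gave 107, 142 and 497 reads in R625H, K666T and K700E, against 66 reads in WT. That was 11.8% (95% Wilson interval 9.85 to 14), 13.75% (11.8 to 16) and 22.5% (20.8 to 24.2) of reads into the acceptor in R625H, K666T and K700E, against 7.17% (5.68 to 9.03) in WT. The outer one, ending at 100842597, gave 742, 811 and 1620 reads in R625H, K666T and K700E, against 794 in WT. Scaled to all junction reads of the library, the inner exon was at 1.77, 2.26 and 7.62 times WT in R625H, K666T and K700E and the outer one at 1.02, 1.07 and 2.07 times. Both first exons were thus above WT in K700E, the inner one by more. These reads were chosen after their values were seen and were given no test. By any junction, 153, 192 and 635 reads left the inner exon in R625H, K666T and K700E and 97 in WT. Entry from the outer exon was read 88, 77 and 164 times in R625H, K666T and K700E and 71 times in WT. The inner exon was thus also spliced as an internal exon, and reads that leave it do not all mark a start there.

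**Figure D3:**
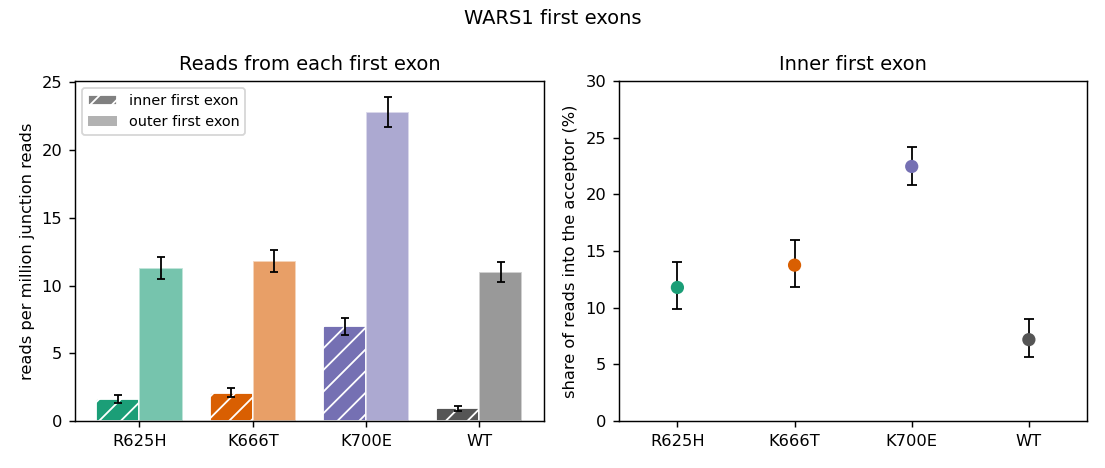
WARS1 junction reads from the inner (hatched) and outer first exon into their common acceptor, in reads per 1000000 junction reads (left), and the inner exon's share of all reads into that acceptor in percent (right), for R625H, K666T, K700E and WT. Bars and points are single libraries with 95% counting intervals; K700E is highest in both panels, at 497 inner and 1620 outer reads.

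The letters of an interferon element lie ahead of the inner first exon. The core of the interferon-stimulated response element (TTTC, a pair of free bases and TTTC again, on either strand) was found in 2 of the 30 genes, WARS1 and EARS2 (6.67%), and in 4.38% of all genes with a promoter. In WARS1 it lies 55 bases before a RefSeq start that is 64 bases ahead of the inner exon's splice donor. The gamma-activated site TTCNNNGAA lies 142 bases before the same start, and occurs in 5 of the 30 genes (16.7%) and in 9.38% of all genes with a promoter. Both are printed because they stand at the first exon whose reads differed most between libraries, with the match in capitals.
WARS1 response element, reverse form: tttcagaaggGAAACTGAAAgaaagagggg
WARS1 gamma-activated site: gctcaagtgtTTCTGAGAAtctgggtgat
They lie at chr14:100375383-100375412 and chr14:100375471-100375499 on GRCh38.p14. EARS2, the mitochondrial glutamate enzyme with the same core, was at log2 ratios of -0.15, -0.18 and -0.14 in R625H, K666T and K700E.

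VARS2 (ENSG00000137411.12, chromosome 6), which charges valine in mitochondria, was the synthetase gene furthest below WT in R625H and K666T. It had 46.9, 49.8 and 56.85 CPM in R625H, K666T and K700E, against 63.7 CPM in WT. Its log2 ratios were -0.44 (-0.50 to -0.38), -0.35 (-0.41 to -0.30) and -0.16 (-0.22 to -0.11). All 29 of its introns with at least 50 reads in WT were below WT in R625H and in K666T, and 24 of 29 were in K700E. IARS2, the isoleucine enzyme of mitochondria, was below WT in all 3 too, with 297.5, 303.5 and 286 CPM in R625H, K666T and K700E, against 351 CPM in WT and log2 ratios of -0.24, -0.21 and -0.29. All 22 of its introns were below WT in R625H and K666T, and 19 of 22 in K700E.

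SARS2 had 2.99, 3.55 and 4.71 CPM in R625H, K666T and K700E, against 3.64 CPM in WT. Its log2 ratio in K700E was 0.36 (0.15 to 0.57), but its introns, mostly shared with the overlapping gene, had a median log2 ratio of -0.04 there, and 9 of 15 were below WT. The gene count of SARS2 was thus above WT in K700E while the median of its introns lay just below it, and its summed junction reads gave a log2 ratio of 0.13. TARS2, the threonine enzyme of mitochondria, was at log2 ratios of -0.13, -0.12 and 0.13, on opposite sides of WT in different mutant libraries. CARS2, WARS2, EARS2 and AARS2 were below WT in all 3 mutant libraries, at log2 ratios between -0.25 and -0.08.

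VARS2 also held an upstream acceptor of the size known for mutant SF3B1. In the intron before coding exon 8 of 29 (ENST00000321897), an unannotated acceptor lay 10 nt upstream of the annotated one, with intron ends 30884871 and 30884881 on chromosome 6 (hg19). It took 18.2% of 148 reads in R625H (12.9 to 25.2), 11.6% of 198 in K666T (7.87 to 16.8) and 10.6% of 208 in K700E (7.09 to 15.5), against 1 of 307 reads, 0.326% (0.0575 to 1.82), in WT. The share rose in each mutant library, with adjusted p = 1e-11, 9.42e-08 and 4.56e-07 by two-sided Fisher's exact test with Benjamini-Hochberg adjustment over all pairs of that size in all genes, a test that compares libraries and not conditions. The mutant libraries did not pass the test against each other, with adjusted p between 0.312 and 1 by the same exact test, and R625H minus K700E was 7.67 points. The 10 added bases are not a multiple of 3, so the reading frame shifts. The annotated join is shown because the added bases fall inside it: the end of exon 7 is in lower case and the start of exon 8 in capitals, from the GENCODE 29 transcript.
VARS2 exon 7 to exon 8: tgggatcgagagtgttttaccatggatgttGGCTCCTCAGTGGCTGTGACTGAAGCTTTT

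Of 157, 156 and 156 acceptor pairs 10 to 30 nt apart tested in synthetase genes in R625H, K666T and K700E, 1 rose in each mutant library, the VARS2 pair. Over all genes 1.74, 1.41 and 1.39% of such pairs rose. In the other direction, 2 pairs fell in R625H (GARS1 and IARS1), 1 in K666T (YARS1) and 1 in K700E (IARS1). Over all genes 208 of 22619, 215 of 22677 and 217 of 22697 fell. Each of these falling synthetase pairs had a junction with no read in at least 1 library. A single rising pair among more than 150 is no more than the share over all genes. In the IARS1 pair 14 nt apart, all 1504 WT reads were on the upstream, annotated site. That site held 94.55% of 1322, 94.19% of 1447 and 89.58% of 1459 reads in R625H, K666T and K700E. Only the K700E shift reached the 10 points required for a call (adjusted p = 4.2e-47, Fisher's exact test).

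**Figure D4:**
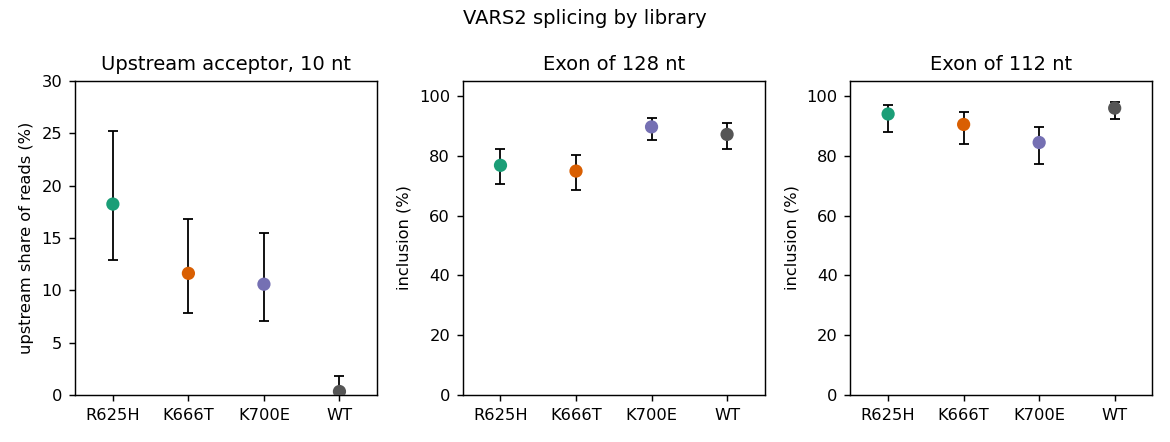
VARS2 splicing in R625H, K666T, K700E and WT, as percent of reads on the upstream acceptor 10 nt before exon 8 (left) and percent inclusion of exons of 128 nt (middle) and 112 nt (right), with 95% Wilson intervals. The upstream acceptor is at 18.2, 11.6 and 10.6% in the mutant libraries and 0.326% in WT, while the 128-nt exon is lower in R625H and K666T and the 112-nt exon lowest in K700E.

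Across all 5 kinds of event (3 sizes of acceptor pair, donor pairs and cassette exons), 12 events rose and 8 fell of 2758 tested in synthetase genes in R625H, where 0.384 and 0.382% of all events did. In K666T 4 rose and 7 fell of 2759, beside 0.361 and 0.454% of all events, and in K700E 6 rose and 21 fell of 2759, beside 0.406 and 0.624%. These counts rest on uniquely mapped reads: with multi-mapped reads added, 103 rose and 121 fell in R625H, 112 and 125 in K666T, and 117 and 161 in K700E. Over all genes the counts moved with them, to 10089 rising and 12286 falling of 445575 events in R625H, against 1475 and 1466 of 384140 without those reads. Between the mutant libraries, 7 rose and 6 fell of 2824 in R625H against K666T (0.357 and 0.313% of all events), 16 and 10 of 2841 in R625H against K700E (0.443 and 0.348%), and 13 and 12 of 2876 in K666T against K700E (0.402 and 0.373%). Calls in any of the 6 comparisons among the 4 libraries came to 74 events in 21 genes. In 62 of these events a junction had no read in at least 1 library, and 12 events, in VARS2, SARS1, AARS1, TARS2 and WARS1, had every junction read in all 4 libraries. Tested among such events alone, 3 rose and 1 fell of 459 in R625H (0.391 and 0.233% of all such events), 1 rose and 1 fell of 462 in K666T (0.336 and 0.379%), and 1 rose and 6 fell of 462 in K700E (0.438 and 0.831%). The 6 that fell in K700E include a 65-nt exon of IARS1 that was not called among all events. The 12 are described here, and overlapping exons that share a splice site are not independent of each other.

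In VARS2 a 128-nt exon (chromosome 6, 30887866 to 30887993 on hg19) was included in 76.8, 74.9 and 89.7% of reads in R625H, K666T and K700E and 87.1% in WT. R625H and K666T were each below K700E, with adjusted p = 0.0304 and 0.00422 by Fisher's exact test. Neither passed against WT, at adjusted p = 0.273 and 0.0662 by the same exact test. A version shortened to 122 nt by an unannotated acceptor scored 64.6, 63.2 and 83.0% in R625H, K666T and K700E and 79.5% in WT. That score rests on the mean of its inclusion junctions, 82, 91 and 132 reads in R625H, K666T and K700E and 120 in WT. The junction leaving the exon, shared with the 128-nt exon, held 156, 171 and 252 reads in R625H, K666T and K700E and 228 in WT. The score thus mostly counts the shared junction and is not the inclusion of the 122-nt form. A 112-nt exon further along (30893051 to 30893162) fell to 84.4% in K700E, against 95.9% in WT, with adjusted p = 0.0289 by Fisher's exact test, and was at 94.0 and 90.5% in R625H and K666T. R625H and K666T did not pass against K700E at this exon, with adjusted p = 0.669 and 1 by the same exact test.

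In WARS1, exons of 44, 109 and 130 nt that lie between the inner first exon and the common acceptor share 1 splice donor. Inclusion of the 44-nt exon (chromosome 14, 100840473 to 100840516 on hg19) was 20.15, 18.9 and 8.3% of reads in R625H, K666T and K700E and 29.8% in WT. It fell in K700E with adjusted p = 1.43e-05 by Fisher's exact test, and the longer forms fell there too. The junction that skips them is the one counted from the inner first exon, with 497 reads in K700E and 66 in WT. The mean of the inclusion junctions of the 44-nt exon came to 45 reads in K700E and 28 in WT. Because 1 of these junctions is shared with the longer forms, the inclusion is not that of the 44-nt form alone.

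In SARS1 an unannotated exon of 117 nt (chromosome 1, 109763709 to 109763825 on hg19) took 34.2, 41.8 and 34.3% of the event's reads in R625H, K666T and K700E and 61.2% in WT. This share fell in R625H and K700E, with adjusted p = 0.031 and 0.0026 by Fisher's exact test. This event is a minor one, with 111, 165 and 210 reads in R625H, K666T and K700E and 85 in WT. The most-read junction at the same donor had 2404, 2712 and 3863 reads in R625H, K666T and K700E and 2300 in WT. It ends at 109766599 and so skips the exon as well, but the event counts only skipping to 109766603. The percentages are therefore not the exon's inclusion among all reads from that donor. From that exon, a pair of acceptors 4 nt apart gave an upstream share of 68.7, 60.75 and 47.8% in R625H, K666T and K700E and 45.3% in WT, and R625H rose against WT with adjusted p = 0.0297 by Fisher's exact test. The pair did not pass when only events with every junction read in all 4 libraries were tested, at adjusted p = 0.154 by the same exact test.

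In TARS2 inclusion of a 147-nt exon with an unannotated donor (chromosome 1, 150468958 to 150469104 on hg19) rose in R625H, to 69.2% against 55.2% in WT (adjusted p = 0.0171, Fisher's exact test), and was 58.6% in K666T and 56.2% in K700E. Its mean inclusion reads were 218 in R625H and 232 in WT, against 210 and 222 for a 90-nt form entered by the same junction. The value is therefore not the inclusion of the 147-nt form alone. A 99-nt exon beside it, scored against the same skipping junction, rose in R625H to 74.5% against 63.1% in WT (adjusted p = 0.0392, Fisher's exact test). That junction held 97, 151 and 166 reads in R625H, K666T and K700E and 188 in WT, so these rises are not independent of each other. The junctions of the 99-nt exon were uneven. The one leaving it held 514 reads in R625H and 591 in WT, beside means of 283 and 322, so the unannotated one entering it was minor. In AARS1 an unannotated 192-nt exon (chromosome 16, 70291956 to 70292147 on hg19) took 47.9, 18 and 3.57% of the event's reads in R625H, K666T and K700E and 16.7% of 24 in WT. No mutant library passed against WT there, and R625H was above K700E with adjusted p = 1.27e-08 by Fisher's exact test. This event is a minor one too, with 71, 50 and 84 reads in R625H, K666T and K700E and 24 in WT, beside 1705, 1747 and 1883 reads in R625H, K666T and K700E and 1849 in WT on the most-read junction at the same donor. Forms of 197 and 397 nt entered by the same junction as the 192-nt exon had a mean of 32 inclusion reads in R625H, against 34 for the 192-nt form. The share is therefore not that of the 192-nt form alone. The most-read junction, 70292121 to 70292882, reaches an acceptor inside the 192-nt stretch and is not counted in the event. The junction entering the 192-nt exon uses an acceptor upstream of that one, at 70292148. The percentages thus compare less-read junctions only and are not inclusion among all reads from that donor.

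FARSB, a subunit of the phenylalanine enzyme, had an acceptor pair 4 nt apart with 99.7, 93.7 and 99.4% of reads on the upstream, annotated site in R625H, K666T and K700E and 92.6% in WT. The shift in K700E, 6.78 points, lay under the 10 points required for a call. R625H stood with K700E and K666T with WT at this pair.

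Junction reads outside the annotation gave a broader measure. They were 2.14, 2.30 and 2.42% of junction reads of the cytosolic genes in R625H, K666T and K700E and 1.53% in WT. For the mitochondrial genes matched to junctions they were 2.27, 2.45 and 2.63% in R625H, K666T and K700E and 1.87% in WT, and over all matched genes 2.71, 2.77 and 2.79% in R625H, K666T and K700E and 2.33% in WT. The share was above WT in all 3 mutant libraries in 27 of the 32 synthetase genes with at least 500 junction reads in each library, where 60.5% of 8537 genes were. IARS2, LARS2, NARS2, RARS1 and TARS2 were the exceptions. The widest relative gap was in EARS2, at no less than 0.862% in each mutant library and 0.145% in WT. EARS2 had 2765 junction reads in WT, so its WT share rests on few unannotated reads, and no interval was given per gene. NARS2 had the highest share in WT, at 11.0%.

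**Figure D5:**
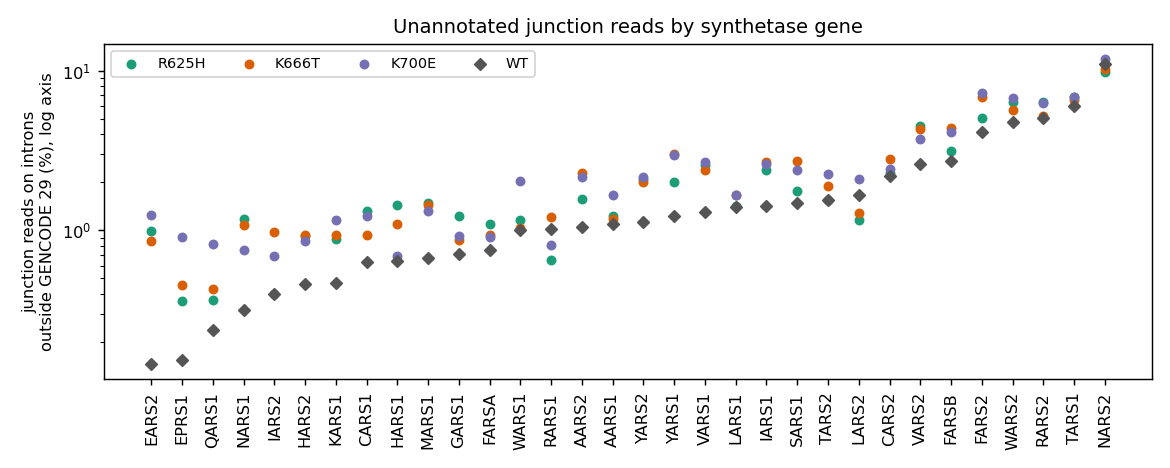
Percent of junction reads on introns outside GENCODE 29 (log axis) for 32 synthetase genes, sorted by the WT value, in R625H, K666T, K700E (circles) and WT (diamonds), 1 library each. In 27 of the 32 genes all 3 circles lie above the diamond, and in NARS2 the 4 values lie close together.

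Of 14 partners and related tRNA enzymes, 1, 0 and 2 were at least 20% lower in R625H, K666T and K700E and none was at least 25% higher, where 4.66, 3.96 and 8.79% of all genes were lower. These counts are near the shares of all genes. SEPSECS, which makes selenocysteinyl-tRNA, was at log2 ratios of -0.50, -0.27 and -0.32. EEF1E1, a small scaffold protein of the multi-synthetase complex, was at 0.12 and 0.03 in R625H and K666T and at -0.46 in K700E. Of the other scaffold genes, AIMP1 was at 0.23, 0.17 and 0.19 and AIMP2 at 0.04, 0.15 and 0.02. Of the elongation factors of the cytosol and of mitochondria, which carry aminoacyl-tRNA to the ribosome, recycle the carrier or move the ribosome along, 7 of 8 were measured. EEF1G had 0 reads in all 4 libraries, and whether that reflects its level or the counting was not tested. A limit was passed by 1 factor, TSFM of mitochondria, lower in K700E at -0.33 and at -0.02 in both R625H and K666T.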

How the data were processed

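Poly(A) RNA of HEK293T cells was read as 100-bp pairs from stranded libraries, per the labels, with 1 library for each of 4 SF3B1 vectors. For every library the authors deposited whole-number counts of reads for genes and for splice junctions, and with each junction its longest overhang in nt. STAR 2.5.3a, HTSeq and the build hg19/GRCh37 are named, per the submitters' processing notes, with nothing on their settings. The strand-specific counts of column 4 were used. The 4 rows that name no gene, 21.9% of pairs in WT and between 28.45 and 29.55% in the mutant libraries, were left out of library sizes.

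From these counts CPM and log2 ratios with a prior count of 10 were computed for 14847 genes with at least 1 CPM in at least 1 library, with 95% counting intervals. RPKM used the merged exons of GENCODE 29. Introns of GENCODE 29 (GRCh38) were matched to the hg19 junctions by length and order. This placed 14238 of 18157 coding genes with 2 or more introns, against 141 on a wrong chromosome, and 33 of the 35 synthetase genes (not MARS2 and PARS2). Only positions of the files are printed for junctions.

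Splicing events were acceptor pairs 3 to 9, 10 to 30 and 31 to 100 nt apart, donor pairs 3 to 100 nt apart and cassette exons of 10 to 500 nt. Each needed 20 reads in both libraries. The two-sided Fisher's exact test was adjusted by Benjamini-Hochberg within a class over all genes, and events were called where that p was under 0.05 and the shares lay at least 10 points apart. "Rose" and "fell" are used of called events. Inclusion uses the mean of the inclusion junctions.

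Alternatives were TMM factors (edgeR 4.0.16), DESeq2 1.42.0 size factors, unstranded counts, junction reads, a prior count of 1, no filter, and other limits on reads, difference, overhang and mapping. The rule for naming took members at least 25% above or 20% below WT in a mutant library and WARS1, called splicing events (for a class with none, its widest), and from each related list at most 4 genes past these limits in all 3 mutant libraries. Other members and genes described, such as IARS2, YARS1, RARS1, CARS2, SESN2 and ASNS, and the FARSB pair, were chosen after their values were seen. The members and lists were chosen with earlier results of these data known. The scripts were tested on simulated data. Python 3.11.15, pandas 2.3.3 and R 4.3.3 were used.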

Additional observations from a re-analysis of the deposited data

Results flagged for a closer look

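The splicing events given here, with every junction read in all 4 libraries, are those where the difference between mutant libraries passed the same exact test as the differences from WT. The share scored for the unannotated 192-nt exon of AARS1 was 44.32 points higher in R625H than in K700E, in an event of 71 and 84 reads. The most-read junction at the same donor, with 1705 and 1883 reads, reaches an acceptor inside that exon and is not counted in the event. The junction entering this exon is shared with forms of 197 and 397 nt. The upstream share of the SARS1 acceptor pair 4 nt apart was 20.85 points higher in R625H than in K700E. For the 128-nt exon of VARS2, R625H minus K700E was -12.85 points and K666T minus K700E -14.77 points. The 122-nt version had -19.82 points for K666T minus K700E, a value that mostly counts the junction shared with the 128-nt exon. In WARS1, R625H minus K700E was 11.85 points for the 44-nt exon and 12.66 points for the 130-nt exon. K666T minus K700E was 10.55 points for the 44-nt, 13.06 points for the 109-nt and 11.75 points for the 130-nt exon. The exons within a gene share junctions, and each value rests on 1 library per vector.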

How the results depend on the processing

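No paired analysis was possible because each group has 1 library. Of the genes 25% above or 20% below WT, 1 was higher in R625H and 2 in K666T with TMM factors, and 4 in K700E with TMM factors, DESeq2 size factors or unstranded counts. With junction reads 4 were higher in K666T, and 3 were higher and 1 lower in K700E. The cytosolic median log2 ratio in K700E was 0.09 with TMM factors and 0.09 with junction reads. For WARS1 in K700E junction reads gave a log2 ratio of 0.59 and for SARS2 0.13; of 123 values of named genes under the alternatives, 107 moved by less than their counting interval and none changed sign among called values. Splicing counts depended on the limits. With 10 reads per event 8 rose and 13 fell in K666T and 12 rose in K700E. With 50 reads 5 rose and 3 fell in R625H, 1 rose and 3 fell in K666T, and 1 rose in K700E. With a difference of 5 points 19 rose and 13 fell in R625H, 10 and 16 in K666T, and 17 and 39 in K700E. With multi-mapped reads added, 103 rose and 121 fell in R625H, 112 and 125 in K666T, and 117 and 161 in K700E. With an overhang of 20 nt 2 rose in K666T. With every junction read in all 4 libraries 3 rose and 1 fell in R625H, 1 and 1 in K666T, and 1 and 6 in K700E. The cause of these shifts was not tested, beyond that fewer or more events enter. The VARS2 acceptor kept its call against WT in all 3 mutant libraries with 10 or 50 reads, an overhang of 20 nt or every junction read, lost it at a limit of 20 points, and in K700E stood at 9.6 points with multi-mapped reads. The SARS1 acceptor pair lost its call when every junction had to be read (adjusted p = 0.154, Fisher's exact test), and the 128-nt exon of VARS2 then fell in K666T (adjusted p = 0.041, Fisher's exact test), as did the 65-nt exon of IARS1 in K700E, at 26.3% against 57.1% in WT (adjusted p = 0.0324, Fisher's exact test). Depth limits the events of few reads, such as the 24 WT reads of the AARS1 exon.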
